A study of Mus musculus with 6 samples.

Results

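The histamine genes Hdc, Hnmt, Aoc1, Hrh1 and Hrh2 were followed in RNA of alveolar type 2 (AT2) cells after deletion of Abca3. They were 5 of the 23478 genes in the deposited count table and were found there by symbol. Hdc was selected on its measured level in this same comparison, where it stood higher in Abca3 cKO cells, and the other 4 were added as the genes of its pathway. The differences between groups are therefore given for these 5 genes as descriptions. Where a fit across all genes called a member, that is stated without a p and supports nothing, since the same 6 libraries chose the set.

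Histamine is a small amine made from the amino acid histidine in a single step. Hdc, histidine decarboxylase, removes the carboxyl group of histidine with pyridoxal phosphate as its cofactor. Inside cells, histamine is inactivated mainly by Hnmt, which adds a methyl group to its ring, and outside cells by the secreted copper enzyme Aoc1, also called diamine oxidase. Among its receptors, Hrh1 signals through Gq proteins to calcium and Hrh2 through Gs proteins to cyclic AMP. In the lung, histamine is best known as a product of mast cells and basophils that acts on airway smooth muscle and vessels.

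AT2 cells are the surfactant-making epithelial cells of the alveolus, and Abca3 encodes the lipid transporter of their lamellar bodies. One group of cells came from adult mice with a conditional knockout of Abca3 (Abca3 cKO, n = 3 libraries) and the other from adult control mice (control, n = 3 libraries). All 6 libraries came from mice of mixed strain background that received tamoxifen, which is placed at 6 days before harvest in the series text and may have been given over those days. The labels used here name neither the Cre driver, the genotype of the controls nor whether replicates were separate animals, so errors measure the spread between these libraries. AT2 cells were purified by depleting other cells.

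Total counts ran from 23531330 to 26071229 per library. The AT2 markers Sftpc, Slc34a2 and Abca3 were present in every library, with Slc34a2 at 25969 ± 992 CPM in Abca3 cKO and 19820 ± 986 CPM in controls. Sftpc, the gene of surfactant protein C, was at 17536 ± 2601 CPM in Abca3 cKO and 22507 ± 4006 CPM in controls, and the groups overlapped. CPM are counts scaled per 1e+06 reads on TMM library sizes, and errors of levels are SD with n = 3 per group throughout. Abca3 itself was at 596 ± 22.0 CPM in Abca3 cKO and 672 ± 32.8 CPM in controls (edgeR log2 fold change -0.17 ± 0.11 SE, adjusted p = 0.696). Counts sum reads over the whole gene and the deleted exons are not named, so this level does not check the genotype. Control replicate 2 stood apart in Xist, at 2345 CPM against 5.36 to 9.36 CPM in the other 5 libraries, and without it the log2 fold change of Hdc was 1.37. The libraries were not made from AT2 transcripts alone: the club cell product Scgb1a1 was at 60835 ± 13498 CPM in Abca3 cKO and 67103 ± 8267 CPM in controls.

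Hdc lies on chromosome 2 of GRCm38, from 126593667 to 126619299 on the minus strand, with 12 exon blocks in GENCODE M21, none of which shares sequence with exons of another annotated gene. The 250 bases before its RefSeq start are shown because Hdc is the member that chose the set. In GENCODE M21 the longest Hdc transcript starts at that same base, while a short one starts 621 bases farther upstream, so the window lies inside the gene span and overlaps 0 annotated Hdc exons. The 250 bases lie on the minus strand of chromosome 2 of GRCm38.p6 (RefSeq), written chr2:126618679-126618928. Capitals mark 1 E box (CANNTG, here CAACTG) and 1 GC box (GGGCGG, bound by Sp1).

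Hdc promoter: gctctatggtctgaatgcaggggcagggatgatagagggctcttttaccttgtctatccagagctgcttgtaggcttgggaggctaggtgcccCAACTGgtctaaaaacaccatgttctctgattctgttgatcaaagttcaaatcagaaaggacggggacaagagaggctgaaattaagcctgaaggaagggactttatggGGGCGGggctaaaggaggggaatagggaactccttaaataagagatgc

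Both strands were searched, and the 2 matches do not overlap. The GC box begins 48 bases before the start, and 32.9% of 27025 promoters of this length hold one. These promoters leave out those of a chromosome that holds none of the 5 histamine genes. The E box begins 157 bases before the start, and 66.0% of promoters hold one. The other 5 motifs had no match in this window. They were the KLF family motif CACCC, held by 51.3% of promoters, the Gata2 core GATAA, held by 23.0%, and the hypoxia factor core ACGTG, held by 16.6%. The others were the C/EBP motif TTNNGNAA, held by 36.9%, and the core promoter element TATAAA, held by 3504 of the 27025 promoters. Each match is a match of letters only.

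Hdc, the histamine-making enzyme, was higher in every Abca3 cKO library than in any control library. It had 9269, 10220 and 7573 counts in the 3 Abca3 cKO libraries and 2816, 3380 and 4132 counts in the 3 control libraries. On the scaled level these were 391, 398 and 306 CPM in Abca3 cKO and 119, 130.5 and 164 CPM in controls. The lowest Abca3 cKO library was thus 1.87 times the highest control library. The means were 365 ± 51.3 CPM in Abca3 cKO and 138 ± 23.4 CPM in controls, a 2.65-fold difference (95% interval 2.14 to 3.28), which is 1.41 ± 0.14 (SE) on the log2 scale. Within a group, the highest library was 1.30 times the lowest in Abca3 cKO and 1.38 times in controls. Hdc was selected on this comparison, so the spread and the interval describe these libraries and are no support for the difference. In the authors' deposited RPKM, which scale reads by transcript length and depth, Hdc was at 118, 107 and 89.1 in Abca3 cKO and at 34.5, 38.2 and 49.5 in controls. In these bulk samples, more cells with Hdc and more Hdc RNA per cell cannot be told apart.

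**Figure D1:**
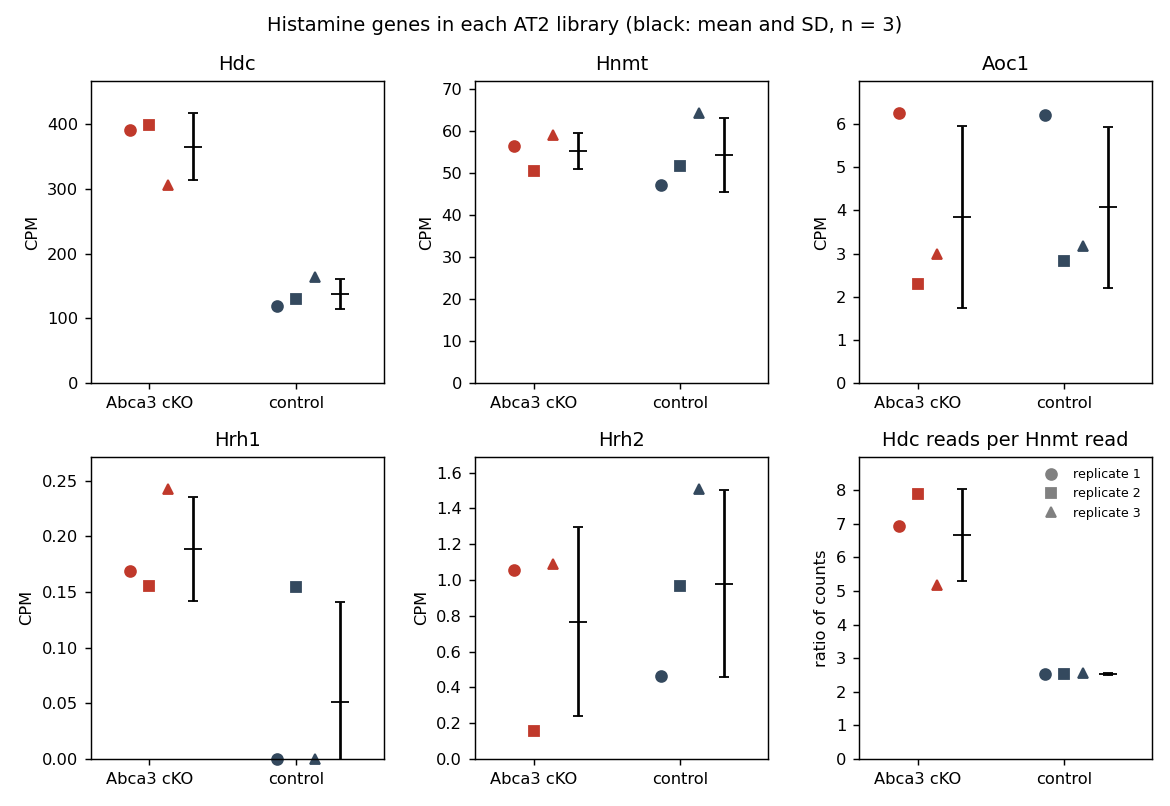
Level of the 5 histamine genes in each library, in CPM (vertical axes start at 0 and differ between panels), with Abca3 cKO left of control, each symbol a replicate and black marks the mean and SD of 3 libraries. The last panel gives the counts of Hdc divided by those of Hnmt in the same library, which were 5.18 to 7.88 in Abca3 cKO and 2.52 to 2.55 in controls.

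Hnmt, the intracellular histamine methyltransferase (chromosome 2, 24002910 to 24049394, minus strand), overlapped between the groups. Its level was 56.4, 50.5 and 59.0 CPM in Abca3 cKO and 47.2, 51.8 and 64.3 CPM in controls. The 3 Abca3 cKO libraries all lay inside the range of the controls. The means were 55.3 ± 4.37 CPM in Abca3 cKO and 54.5 ± 8.81 CPM in controls, and the 95% interval of the fold ran from 0.824 to 1.25. Since both genes are read from the same library, their counts can be divided without any scaling of depth. Hdc had 6.93, 7.88 and 5.18 reads for each Hnmt read in Abca3 cKO and 2.52, 2.52 and 2.55 in controls. The 3 control libraries agreed closely in this ratio although both genes were highest in control replicate 3. In Abca3 cKO the library with the most Hnmt, replicate 3, had the least Hdc.

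The ratio of Hdc to AT2 genes was also higher. Hdc counts divided by Slc34a2 counts, a phosphate transporter of AT2 cells, gave 0.0141 ± 0.00231 in Abca3 cKO and 0.00694 ± 0.000977 in controls, a ratio of means of 2.03. The same division by Sftpb gave 0.0403 ± 0.00677 in Abca3 cKO and 0.0198 ± 0.00187 in controls, a ratio of means of 2.04. These values are below the 2.65-fold difference in CPM because Slc34a2 and Sftpb were themselves at higher means in Abca3 cKO. Divided by Abca3 counts, Hdc gave 0.613 ± 0.0959 in Abca3 cKO and 0.205 ± 0.0290 in controls.

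Aoc1, the secreted diamine oxidase (chromosome 6, 48872896 to 48909188, plus strand), was a low transcript. It had 148, 59 and 74 counts in Abca3 cKO and 147, 73 and 80 counts in controls. That is 6.25, 2.30 and 2.99 CPM in Abca3 cKO and 6.21, 2.82 and 3.17 CPM in controls. In each group 1 library stood at about the same high level and the other 2 lay close together, so the spread within a group was far larger than the difference between group means. The means were 3.84 ± 2.11 CPM in Abca3 cKO and 4.07 ± 1.86 CPM in controls, and the 95% interval of the fold ran from 0.502 to 1.78. The 2 high libraries were replicate 1 of each group. For the neutrophil and secretory protein Ltf they were the highest of their group, at 77.6 CPM (Abca3 cKO) and 49.01 CPM (control). For the neutrophil gene Csf3r they were the lowest of their group, at 6.88 CPM (Abca3 cKO) and 6.46 CPM (control). What these levels have to do with that of Aoc1 was not tested.

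The receptors were near the limit of detection. Hrh2, the Gs-coupled receptor (chromosome 13, 54192129 to 54236180, plus strand), had 25, 4 and 27 counts in Abca3 cKO and 11, 25 and 38 counts in controls. Its means were 0.767 ± 0.530 CPM in Abca3 cKO and 0.979 ± 0.522 CPM in controls, and the groups overlapped. The 95% interval of the fold, 0.246 to 2.48, covers both a large fall and a large rise. Exons of Hrh2 share 145 bases with the antisense gene Gm16578 on the opposite strand, and the library kit does not mark strand, so reads there could come from either gene. Hrh1, the Gq-coupled receptor (chromosome 6, 114397936 to 114483296, plus strand), had 4, 4 and 6 counts in Abca3 cKO and 0, 4 and 0 counts in controls. It did not pass the filter on low counts, a library with 0 counts could hold up to 3 counts (0.119 to 0.127 CPM in those 2 libraries, counting error only), and no fold is given. The genes of the other receptors, Hrh3 and Hrh4, had 0 counts in all 6 libraries, which allows up to 0.116 to 0.127 CPM per library.

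Set on a scale per transcript length, the order of the 5 levels was Hdc, Hnmt, Aoc1, Hrh2 and Hrh1 in the authors' RPKM, in both groups. Hdc averaged 104.8 ± 14.7 RPKM in Abca3 cKO and 40.7 ± 7.78 RPKM in controls. Hnmt averaged 12.1 ± 1.35 RPKM in Abca3 cKO and 11.3 ± 1.46 RPKM in controls. Aoc1 averaged 0.792 ± 0.433 RPKM in Abca3 cKO and 0.827 ± 0.366 RPKM in controls, above Hrh2 in every library. Hrh2 averaged 0.244 ± 0.173 RPKM in Abca3 cKO and 0.246 ± 0.197 RPKM in controls, and Hrh1 0.0244 ± 0.00664 RPKM in Abca3 cKO and 0.00667 ± 0.0115 RPKM in controls. The place of Hdc above Hnmt depended on the length used. Divided by the exon length of GENCODE M21, 6389 bases for Hdc and 1769 bases for Hnmt, Hdc stood at 57.1 CPM per kilobase in Abca3 cKO and 21.6 in controls, and Hnmt at 31.3 in Abca3 cKO and 30.8 in controls. On this scale Hdc was above Hnmt in the 3 Abca3 cKO libraries and below it in the 3 control libraries. The deposited RPKM correspond to lengths of 3318 to 3652 bases for Hdc and 4416 to 5161 bases for Hnmt, if each library was scaled by its total count.

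Across all genes, 55 of 14477 tested passed an adjusted p of 0.05 with edgeR's quasi-likelihood test, or 0.380%, of which 38 (0.262%) were higher in Abca3 cKO and 17 (0.117%) were lower. Of the 5 histamine genes 4 passed the count filter and 1, Hdc, was called higher. Since this comparison chose the set, nothing is read from that count. In 14.1% of tested genes the groups did not overlap, and in 7.34% every Abca3 cKO library lay above every control library, as for Hdc. DESeq2 called 233 genes (1.50%). The call of Hdc was lost on the deposited RPKM with limma at a pseudocount of 0.1 (log2 fold change 1.37) and without a filter on low values (1.35), where 3 and 1 genes were called in all.

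**Figure D2:**
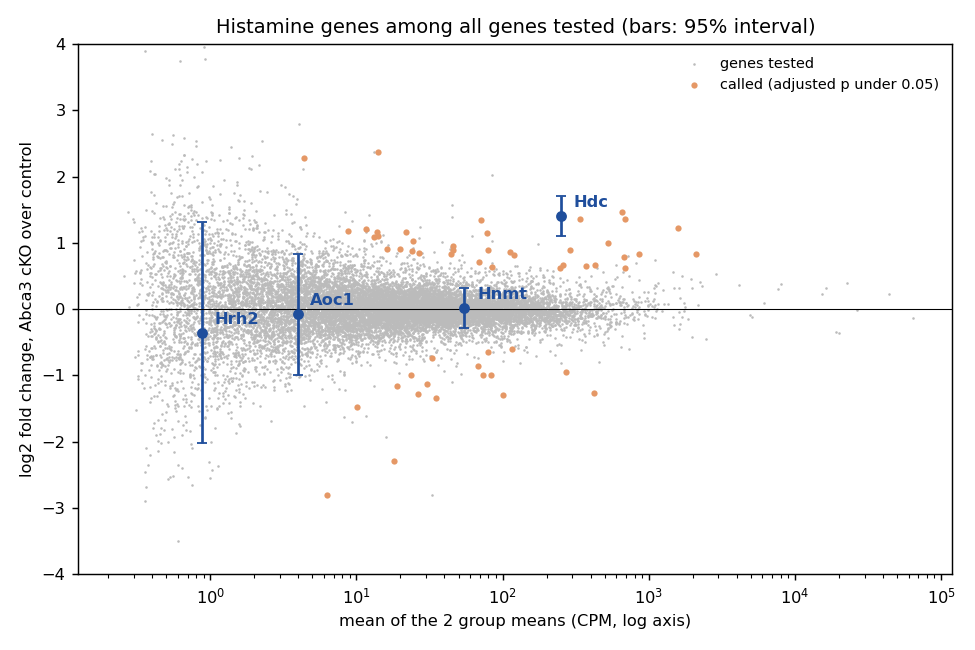
Log2 fold change of Abca3 cKO over control against mean level in CPM (log axis) for the 14477 genes tested, with called genes in orange and the 4 tested histamine genes in blue with 95% intervals; 6 genes lie outside the plotted range. Hdc, selected on this comparison, stands at 1.41 and Hnmt at 0.02, and the intervals of Aoc1 and Hrh2 widen as counts fall.

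Lists of related function, 12 in all, held 94 further genes, of which 72 were tested and 1, Adra1a, was called higher and none lower by edgeR, which called 0.380% of all genes tested. At an unadjusted p under 0.05 there were 6 higher and 2 lower, 11.1% of the 72, against 9.23% of all genes tested. The median log2 fold change of the 72 was -0.01, against 0.00 for all genes. DESeq2, which called 1.50% of all genes it tested, called 2 of them, Adra1a and Hif1a.

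On the supply side, 9 of 14 genes that import, use or break down histidine were tested and none was called (0 at an unadjusted p under 0.05, 0 with DESeq2). Slc3a2, the heavy chain of amino acid carriers, was the most abundant, at 156 ± 26.8 CPM in Abca3 cKO and 164 ± 20.0 CPM in controls. The 3 enzymes of the pyridoxal phosphate cofactor were tested without a call (0 at an unadjusted p under 0.05), with the kinase Pdxk at 45.5 ± 7.26 CPM in Abca3 cKO and 46.3 ± 7.76 CPM in controls. Other amino acid decarboxylases that use this cofactor were not called. All 4 tested of 6 had negative log2 fold changes, with a median of -0.28 and no call (0 at an unadjusted p under 0.05, 0 with DESeq2). Odc1, which makes the polyamine precursor putrescine, was at 68.7 ± 6.76 CPM in Abca3 cKO and 77.3 ± 10.7 CPM in controls. Ddc, the decarboxylase that makes dopamine and serotonin, was at 1.10 ± 0.440 CPM in Abca3 cKO and 1.47 ± 0.959 CPM in controls.

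On the breakdown side, the oxidases and dehydrogenases that act after Hnmt and Aoc1 had 7 of 8 members tested and no call (0 at an unadjusted p under 0.05, 0 with DESeq2), with log2 fold changes between -0.12 and 0.12. Maob, which oxidises methylhistamine, was at 92.5 ± 14.5 CPM in Abca3 cKO and 85.2 ± 10.3 CPM in controls. Aldh1a1, the most abundant dehydrogenase of the list, was at 1402 ± 452 CPM in Abca3 cKO and 1521 ± 130.3 CPM in controls. The 4 enzymes of the methyl donor of Hnmt gave no call (0 at an unadjusted p under 0.05), and Mat2a, which makes that donor, was at 347 ± 28.1 CPM in Abca3 cKO and 349 ± 17.2 CPM in controls. Among related methyltransferases, 5 of 6 were tested with none called (1 at an unadjusted p under 0.05, 0 with DESeq2) and all 5 log2 values were above 0 (median 0.42). The member with the highest CPM, the lung enzyme Inmt, was at 257 ± 23.3 CPM in Abca3 cKO and 183 ± 40.0 CPM in controls (edgeR log2 fold change 0.49 ± 0.15 SE, adjusted p = 0.230). The copper amine oxidases Aoc2 and Aoc3 were not called (0 at an unadjusted p under 0.05), with Aoc3 at 10.4 ± 1.52 CPM in Abca3 cKO and 8.998 ± 1.77 CPM in controls.

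Of 8 carriers of amines, 5 were tested and none called (0 at an unadjusted p under 0.05, 0 with DESeq2). The carnitine carrier Slc22a5 had the highest CPM, 20.9 ± 3.17 in Abca3 cKO and 17.2 ± 5.24 in controls. Slc18a2, the vesicular carrier that loads histamine into granules, was named for that role and was at 3.92 ± 1.17 CPM in Abca3 cKO and 5.88 ± 0.448 CPM in controls (edgeR log2 fold change -0.58 ± 0.30 SE, adjusted p = 0.611).

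**Figure D3:**
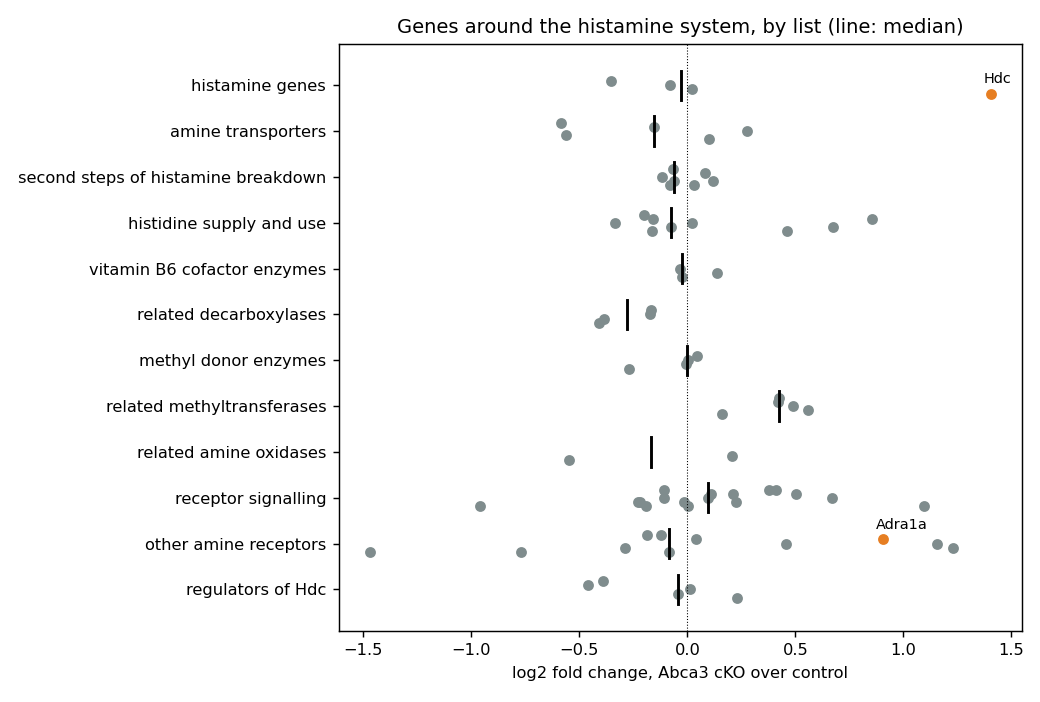
Log2 fold change of Abca3 cKO over control for each tested gene of the histamine set and of 11 lists of related function, with the median of a list as a line and called genes in orange. Hdc and the adrenergic receptor gene Adra1a are the called genes, and the list medians lie between -0.28 and 0.42.

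Downstream of the receptors, 17 of 19 genes for Gq and Gs proteins and their first effectors were tested and none was called (0 with DESeq2). The adenylate cyclases Adcy2, Adcy6 and Adcy7 reached an unadjusted p under 0.05, all higher, as did 9.23% of all genes tested in either direction. Adcy2 was at 6.86 ± 1.84 CPM in Abca3 cKO and 3.21 ± 0.836 CPM in controls, and the adjusted p of the 3 cyclases was 0.214 to 0.283 by edgeR. Gnas, the Gs protein through which Hrh2 signals, was at 659 ± 22.0 CPM in Abca3 cKO and 612 ± 76.3 CPM in controls. Among receptors of other amines, 11 of 16 were tested, and 3 had an unadjusted p under 0.05, of which 2 were higher and 1 lower, against the same 9.23%. Adrb3, 1 of the 2 higher, was at 3.21 ± 0.0851 CPM in Abca3 cKO and 1.43 ± 0.921 CPM in controls (edgeR log2 fold change 1.16 ± 0.52 SE, adjusted p = 0.507). Adra1a, a Gq-coupled adrenergic receptor, rose. It was at 22.6, 19.97 and 20.8 CPM in Abca3 cKO and 11.9, 10.1 and 11.8 CPM in controls (edgeR log2 fold change 0.91 ± 0.17 SE, adjusted p = 0.0374). The groups did not overlap, but the call held in 3 of 13 alternatives and in 0 of the 6 fits without 1 library, where its log2 fold change was 0.83 to 0.95. Over the 13 alternatives its adjusted p ran from 0.000833 to 0.205. The Gs-coupled adrenergic receptor Adrb1, the lower of those 3, was at 6.84, 4.55 and 5.17 CPM in Abca3 cKO and 9.59, 10.6 and 8.09 CPM in controls (edgeR log2 fold change -0.77 ± 0.25 SE, adjusted p = 0.291).

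Of 6 transcription factors known from other cells to act on Hdc, 5 were tested and none was called by edgeR (1 at an unadjusted p under 0.05, 1 with DESeq2). Sp1, whose motif is the GC box of the printed promoter, was at 186 ± 14.5 CPM in Abca3 cKO and 184 ± 6.17 CPM in controls. Mitf was at 46.3 ± 7.19 CPM in Abca3 cKO and 39.4 ± 2.77 CPM in controls. Hif1a, which DESeq2 called lower, was at 92.9, 88.3 and 98.4 CPM in Abca3 cKO and 122, 144 and 118 CPM in controls (edgeR log2 fold change -0.46 ± 0.12 SE, adjusted p = 0.129, range over the alternatives 0.0360 to 0.591). Gata2, which acts on Hdc in mast cells, had 0, 0 and 5 counts in Abca3 cKO and 0, 2 and 2 counts in controls.

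The neighbours of Hdc on chromosome 2, which were chosen after its value was known, did not pass the test. Slc27a2, a fatty acid carrier 5424 bases away, was at 2.62 ± 0.932 CPM in Abca3 cKO and 1.91 ± 0.857 CPM in controls. Gabpb1, a subunit of an ETS-type transcription factor 8143 bases away on the other side, was at 61.2 ± 4.16 CPM in Abca3 cKO and 58.6 ± 0.778 CPM in controls. Usp8, a deubiquitinase gene 88029 bases away, was at 792 ± 110 CPM in Abca3 cKO and 538 ± 21.6 CPM in controls (edgeR log2 fold change 0.56 ± 0.12 SE, adjusted p = 0.0759), and its span overlaps that of Usp50, at 1.89 ± 0.719 CPM in Abca3 cKO and 1.09 ± 0.633 CPM in controls.

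The genes whose profile over the 6 libraries was most like that of Hdc were sought among 9898 tested genes whose mean reached 5 CPM, leaving out predicted genes. Likeness was the root mean square difference between log2(CPM + 1) values centred on each gene's mean, which was 0.75 for the median gene. The 5 closest were Chil1 (0.13), a chitinase-like secreted protein, Apoc1 (0.15), an apolipoprotein, Lcn2 (0.17), the siderophore-binding lipocalin, the membrane protein gene Nnat (0.22) and Fam69b (0.22). Chil1 was at 2398, 2588 and 1638 CPM in Abca3 cKO and 862, 873 and 1094 CPM in controls. Lcn2 was even across the Abca3 cKO libraries, at 991, 959 and 1005 CPM, and was at 379, 355 and 423 CPM in controls. All 6 libraries entered the measure, so likeness to Hdc between and within the groups is what chose these genes.

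**Figure D4:**
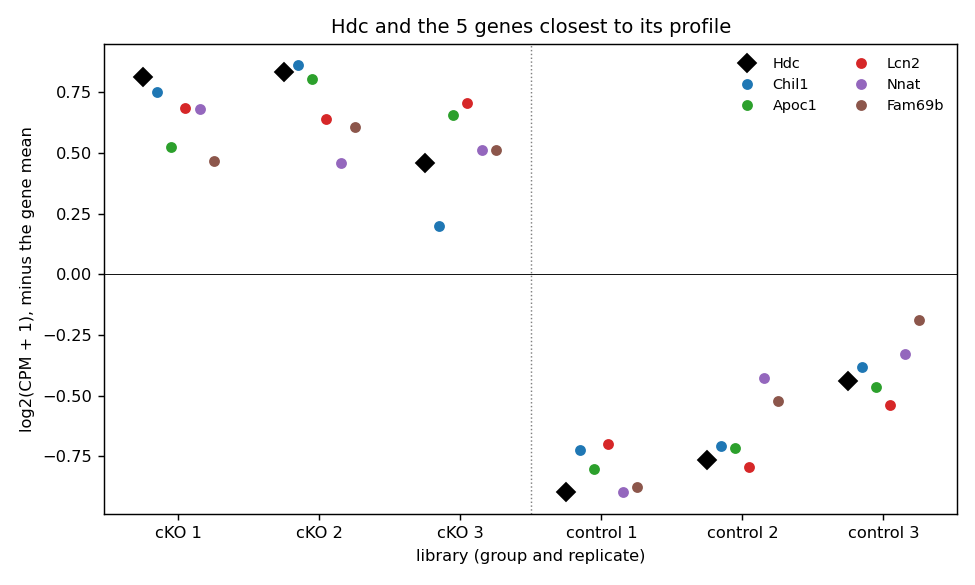
Hdc (black diamonds) and the 5 genes closest to its profile in each library, as log2(CPM + 1) minus the mean of the gene over the 6 libraries. All 6 genes lie above 0 in the 3 Abca3 cKO libraries and below 0 in the 3 control libraries, as the choice by likeness to Hdc requires of close genes.

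Mast cells and basophils store histamine, so their markers were read beside Hdc. Of 12 markers, 6 had 0 counts in every library, among them the defining genes Mcpt8 and Ms4a2, and the summed level of the list was 4.08 to 6.35 CPM in Abca3 cKO and 2.06 to 4.79 CPM in controls. Tpsb2, a mast cell tryptase, had 4, 0 and 0 counts in Abca3 cKO and 0 in all controls. The defining marker that was detected in every library was Cpa3, the mast cell carboxypeptidase. It had 69, 56 and 52 counts in Abca3 cKO and 29, 15 and 13 counts in controls (edgeR log2 fold change 1.63 ± 0.55 SE, adjusted p = 0.313). Cpa3 was higher in every Abca3 cKO library than in any control library, as were 7.34% of all genes tested, and did not pass the test. The mean of Cpa3 was 2.40 ± 0.447 CPM in Abca3 cKO and 0.773 ± 0.393 CPM in controls, and the authors' RPKM list Cpa3 at 0 in 5 of the 6 libraries. The abundant Scgb1a1 is also listed at 0 RPKM in 2 libraries. Kit was at 1.73 ± 1.15 CPM in Abca3 cKO and 1.20 ± 0.982 CPM in controls. The other tested marker, Hpgds, had a lower mean in Abca3 cKO, at 1.14 ± 0.368 CPM against 1.62 ± 0.332 CPM in controls, and its groups overlapped. The part of Cpa3-bearing cells in the Hdc level was not tested.

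Neutrophils and macrophages can also express Hdc. The neutrophil genes S100a8 and S100a9 had 2 and 0, 0 and 2, and 0 and 0 counts in the 3 Abca3 cKO libraries, and 0 and 0, 0 and 11, and 0 and 0 counts in the 3 control libraries. The sum over 9 neutrophil markers, led by Ltf and Cxcr2, was 47.1 to 102 CPM in Abca3 cKO and 50.2 to 83.2 CPM in controls. Cxcr2 was at 25.1 ± 7.31 CPM in Abca3 cKO and 28.7 ± 4.27 CPM in controls. Its deposited RPKM were only 0.367 ± 0.155 in Abca3 cKO and 0.390 ± 0.108 in controls. Counts and RPKM thus disagree on Cxcr2, so the sum is not a clean measure of neutrophil RNA. Over 9 macrophage and monocyte markers the sum was 44.9 to 63.5 CPM in Abca3 cKO and 67.3 to 79.1 CPM in controls. These sums did not overlap and were lower in Abca3 cKO, and in 14.1% of single genes tested the groups did not overlap. Most of the sum was Csf1r, which overlapped between groups. It was at 40.3, 51.6 and 31.8 CPM in Abca3 cKO and 67.1, 37.3 and 58.9 CPM in controls. The defining macrophage gene Marco had 0 counts in Abca3 cKO and 2, 21 and 2 counts in controls, and Mrc1 had 9, 22 and 7 counts in Abca3 cKO and 8, 78 and 5 in controls. Lymphocyte markers summed to 7.71 to 9.16 CPM in Abca3 cKO and 7.34 to 8.75 CPM in controls, with the T cell gene Cd3e at 0, 0 and 2 counts in Abca3 cKO and 1, 5 and 0 counts in controls. None of the 13 tested markers of these 4 lists was called by edgeR or DESeq2, and 1, Cpa3, had an unadjusted p under 0.05.

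**Figure D5:**
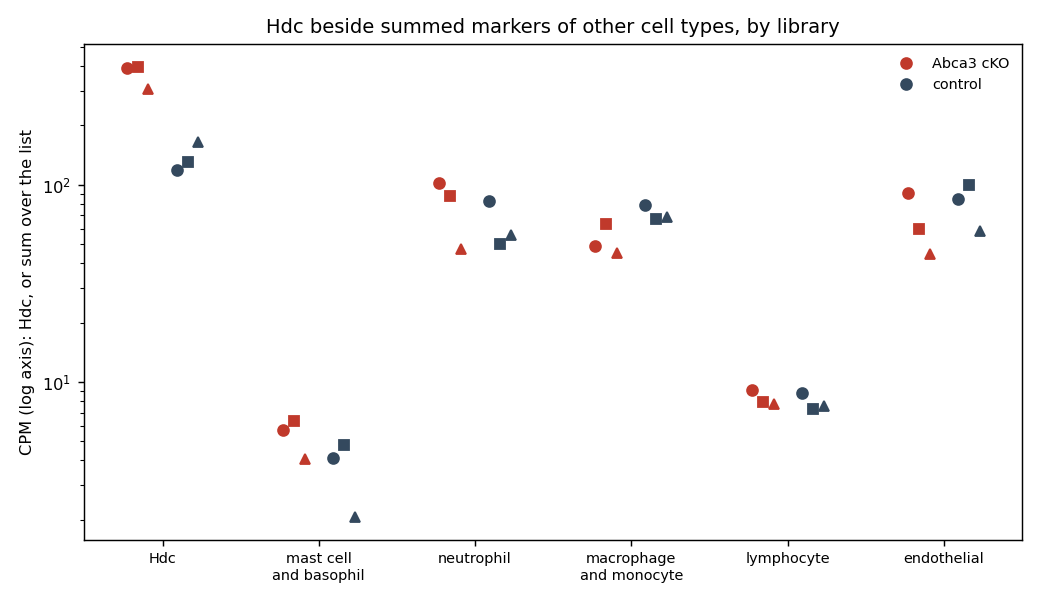
Hdc, and the summed level of marker lists of other cell types, in each library in CPM on a log axis (symbols are replicates, Abca3 cKO left of control in each column). Hdc is at 306 to 398 CPM in Abca3 cKO and 119 to 164 CPM in controls. The mast cell and basophil list sums to 4.08 to 6.35 CPM in Abca3 cKO and 2.06 to 4.79 CPM in controls, and the part of these cells in the Hdc level was not tested.

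Markers of lung cells that carry histamine receptors or stand near AT2 cells were read in the same way. Endothelial markers summed to 44.7 to 90.3 CPM in Abca3 cKO and 58.6 to 99.8 CPM in controls. Most of that sum was Kdr, at 57.7 ± 21.6 CPM in Abca3 cKO and 72.3 ± 22.2 CPM in controls. The defining marker Pecam1 was at 0.705 ± 0.630 CPM in Abca3 cKO and 0.707 ± 0.0643 CPM in controls. None of the 6 tested was called (0 with DESeq2), and 1, Tek, was lower at an unadjusted p under 0.05. The 8 mesenchymal and smooth muscle markers summed to 798 to 1243 CPM in Abca3 cKO and 578 to 790 CPM in controls. Their sums did not overlap between groups, but the lowest Abca3 cKO sum, 798 CPM, was close to the highest control sum, 790 CPM. No marker was called (0 with DESeq2). Of the 8, 4 had an unadjusted p under 0.05, all higher, against 9.23% of all genes tested. The fibroblast collagen Col1a1 was at 96.0 ± 10.3 CPM in Abca3 cKO and 64.7 ± 17.2 CPM in controls. Markers of club and ciliated cells summed to 52201 to 81570 CPM in Abca3 cKO and 63124 to 81544 CPM in controls. Neuroendocrine markers summed to 9.03 to 14.9 CPM in Abca3 cKO and 7.10 to 15.0 CPM in controls. Of these 7 markers 4 were tested and none called (0 at an unadjusted p under 0.05, 0 with DESeq2), all 4 with positive log2 fold changes (median 0.38). Alveolar type 1 markers summed to 1620 to 2263 CPM in Abca3 cKO and 2148 to 2928 CPM in controls, with none called by edgeR, 2 by DESeq2 and 3 at an unadjusted p under 0.05, all lower. All 7 of its markers were tested and had negative log2 fold changes, with a median of -0.35, and 9.23% of all genes tested had such a p. Ager, a defining marker with the smallest change of the list, was at 374 ± 25.6 CPM in Abca3 cKO and 399.9 ± 92.7 CPM in controls. The 3 lower markers were Hopx, also defining, Akap5 and Clic5. Hopx was at 192 ± 30.4 CPM in Abca3 cKO and 279 ± 57.9 CPM in controls, and Clic5 at 583 ± 116 and 887 ± 147 CPM. The AT2 list itself summed to 73677 to 85310 CPM in Abca3 cKO and 65673 to 76984 CPM in controls, with Napsa called higher and DESeq2 calling 3 of 10. At an unadjusted p under 0.05 there were 5 of the 10 AT2 markers higher and 1, Sftpc, lower, against 9.23% of all genes tested. The part of these shifts in the level of Hdc was not tested.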

How the data were processed

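RNA was measured in 3 Abca3 cKO and 3 control libraries of mouse AT2 cells, amplified with the NuGEN Ovation system and made into Nextera XT libraries, per the labels' protocols. The authors deposited whole counts of reads per gene symbol, not normalized, and RPKM. DESeq, Cufflinks 2.0.2, TopHat2 2.0.8, Bowtie2 2.1.0 and the build GRCm38 (mm10) are listed, per the submitters' processing notes, without a role for each tool. Which program counted reads, on which annotation and strand, was not given in the sources used here. A deposited sheet with 29 gene symbols and no values was not used.

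Counts were tested in R 4.3.3 with edgeR 4.0.16 (filterByExpr, TMM, robust quasi-likelihood F test, two-sided, group as the only term), with Benjamini-Hochberg adjustment over 14477 genes and a threshold of 0.05. The SE is the size of the log2 fold change divided by the square root of F. Reads were amplified without molecular identifiers, so floors of 3 counts cover counting error only. Alternatives were RLE scaling, no count filter, DESeq2 1.42.0, limma 3.58.1 on log2(RPKM + 1) or log2(RPKM + 0.1) with a mean of at least 0.5 RPKM, limma without that filter, the replicate number as a block, and leaving out each library. Libraries of a group differed beyond counting noise, with a chi-square of 30.5 to 52.1 per degree of freedom.

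The members and lists were chosen with earlier results of these data known. The genes named are the 5 members, Abca3, called genes and the gene with the highest mean CPM of each list, the 5 genes closest to Hdc, and the defining and most abundant markers, of which the text gives those beside a result. Genes named for their role instead are Ddc, Maob, Slc18a2, Mitf and Gata2. Hif1a, Adrb1, Adrb3, Csf3r, Hpgds, the adenylate cyclases and the neighbours of Hdc were named after their values were seen. The markers Ly6g and Adgre1 were not analysed here. Exon lengths and positions came from GENCODE M21 on GRCm38 and the promoter from RefSeq, where all 5 members matched by symbol.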

Additional observations from a re-analysis of the deposited data

How the results depend on the processing

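Hdc was selected on these 6 libraries, so its refits describe the settings and are no support for the difference. Its call was lost with limma on log2(RPKM + 0.1) (log2 fold change 1.37) and without the RPKM filter (1.35), where 0 of the 5 histamine genes were called, and its log2 fold change ran from 1.31 to 1.55 when 1 library was left out (1 of the 5 histamine genes called each time). Hnmt, Aoc1 and Hrh2 were not called in any alternative, and their signs were not stable: without 1 library Hnmt ran from -0.070 to 0.16, Aoc1 from -0.62 to 0.36 and Hrh2 from -0.70 to 0.13. The number of genes called in all, 55, was 132 without a count filter, 233 with DESeq2, 11, 3 and 1 on the RPKM (log2(RPKM + 1), log2(RPKM + 0.1) and no filter) and 21 to 50 without 1 library. The libraries whose removal took it furthest were Abca3 cKO replicate 1 (26 genes), Abca3 cKO replicate 2 (27 genes) and control replicate 1 (21 genes). Of the related genes 2 were called with DESeq2 and 0 on the RPKM in each of its 3 forms, with the replicate block or without any 1 library. The cause of these differences was not tested.

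With the replicate number as a replicate block, 33 genes were called, 30 of them among the 55. The labels do not say that equal numbers mark a shared litter or day, and same-numbered libraries deviated from their group means with correlations of 0.096, -0.032 and -0.046 across genes, so the numbers were not taken to pair samples. Little can be said of the receptors, which had at most 38 counts in a library for Hrh2 and 6 for Hrh1. The interval of Hrh2 covers both a large fall and a large rise. Its counts were low and also differed widely between libraries of a group. The share of each in the width of that interval was not tested. Groups of 3 libraries were not tested for outlying values.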
